A study of Mus musculus with 15 samples.

Results

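The heat shock chaperones described here are 10 genes, taken by symbol from tables of 17493 genes: Hspa1a, Hspa1b, Hspa8, Hsph1, Dnajb1, Dnaja1, Hsp90aa1, Hsp90ab1, Hspd1 and Hspe1. They were followed in 15 bulk RNA libraries of mouse CD8+ T cells, unstimulated or stimulated in either of 2 ways for 8 h or 22 h. All 10 were among the 10831 genes kept by a filter on low counts, but Hspa1a and Hspa1b passed it through the unstimulated libraries alone. The genes were chosen by symbol with their counts in stimulated against unstimulated libraries already known, so those changes are given as a description without a test. Tests of the 10 genes concern the stimulated groups against each other.

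All cells were OT-I T cells, from female mice of the strain C57BL/6-Tg(TcraTcrb)1100Mjb/Crl, and came from spleen and lymph nodes. OT-I cells carry a single transgenic receptor for an ovalbumin peptide on MHC class I, so the measurements describe 1 T cell specificity and not a normal repertoire. The unstimulated group was taken at 0 h without treatment. The IF groups received 5 ng/ml of immunofilaments carrying peptide-loaded MHC and interleukin-2 (IF-pMHC(SIIT)/IL-2) for 8 h or 22 h. The DC groups received 20000 dendritic cells per well, grown with Flt3 ligand and loaded with the peptide SIITFEKL, for the same times. Stimulated wells held 50000 T cells, and live CD8+ CD103− cells were sorted for RNA. Each of the 5 groups has 3 libraries, numbered Don1 to Don3 in the titles of every group. The labels do not explain this tag or name the animals, so p-values measure the spread between these libraries. Values for the 4 stimulated groups are listed in the order IF 8 h, DC 8 h, IF 22 h, DC 22 h unless a group is named.

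Heat shock proteins are chaperones, which bind unfolded proteins and help them fold. In the cytosol, HSP70 proteins are handed clients by J-domain proteins, are reset by nucleotide exchange factors such as HSP110, and pass some clients on to HSP90. In mitochondria, HSP60 and its lid HSP10 form a folding chamber. Heat shock factors raise many of these genes under heat or other stress by binding inverted repeats of the bases GAA, and T cells also raise chaperones as they grow after activation. Tissue dissociation and sorting are known to induce stress and early response genes in many cell types.

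Hspa1a and Hspa1b encode almost the same inducible HSP70 protein, and both are single exons on the minus strand of chromosome 17 in GENCODE vM21 (GRCm38). Hspa1a spans chr17:34969190-34972156 and Hspa1b spans chr17:34956436-34959238, with their transcription starts 12918 bases apart. Their coding sequences differed at 8 of 1929 aligned columns outside gaps (99.4% identity), and 79.5% of the 60-base windows of the Hspa1a coding sequence also occurred in the Hspa1b transcript. In the 3′ untranslated region, from which CEL-seq reads mostly come, 0 of 751 such windows were shared. Reads there can be told apart, while the authors' handling of reads in the coding region is not given in the sources used here. Exonic bases of Hspa1a also overlap Gm20481 on the opposite strand over 564 bases. RefSeq promoter windows (GRCm38.p6) were found for 7 of the 10 genes, the others being Hspa8, Hsp90aa1 and Hsp90ab1. The 250 bases before the start of the paired genes, chr17:34972157-34972406 for Hspa1a and chr17:34959239-34959488 for Hspa1b on the minus strand, are 98.8% identical. They are shown because both genes were near 0 in all 12 stimulated libraries, with the 8 bases matching the short inverted repeat in capitals:
Hspa1a: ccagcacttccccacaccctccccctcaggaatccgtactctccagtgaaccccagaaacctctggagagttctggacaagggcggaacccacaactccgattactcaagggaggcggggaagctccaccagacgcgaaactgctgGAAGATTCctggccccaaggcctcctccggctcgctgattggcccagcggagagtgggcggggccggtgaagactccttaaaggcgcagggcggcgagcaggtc
Hspa1b: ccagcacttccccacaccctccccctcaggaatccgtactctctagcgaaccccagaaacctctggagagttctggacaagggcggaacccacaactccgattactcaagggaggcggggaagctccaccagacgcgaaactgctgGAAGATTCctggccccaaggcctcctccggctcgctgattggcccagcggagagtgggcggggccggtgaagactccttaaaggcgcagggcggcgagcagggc
In both, the match GAAGATTC lies 104 to 97 bases before the start. The short motif searched was GAANNTTC or TTCNNGAA, and the long motif was GAANNTTCNNGAA, on both strands; every long match contains short ones. The short motif occurred in 5 of the 7 windows and in 12.8% of 32851 RefSeq windows of the same length. Hsph1, Dnajb1, Dnaja1 and Hspd1 had 2 or 3 windows each, of which the 1 nearest the GENCODE start was used. The 32851 windows were not reduced to 1 per gene. Annotated exons cover 218 of the 250 bases of the Dnaja1 window. The long motif occurred only in the window of Hspe1 among the 7, and in 0.466% of all windows. Overlapping long matches there form a run of 18 bases at chr1:55088059-55088076 on the plus strand, shown in capitals because it holds the only long matches among the 7 windows:
Hspe1: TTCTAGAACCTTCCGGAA
This run lies 89 to 72 bases before the start of Hspe1 and inside an annotated exon of Hspd1, which is read in the opposite direction. These matches describe letters in a window, not binding.

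Library totals ran from 2892874 to 19806730 counts. Levels are CPM, counts scaled to a common library total, with totals adjusted by the trimmed mean of M values, and 3 counts, the limit that a count of 0 allows, equal 0.153 to 0.995 CPM depending on the library. Replicate pairs differed by 9.95 to 105 times counting variation (chi-square per degree of freedom). Replicates 2 and 3 of IF 22 h stood apart, with 0.146% to 0.179% of counts in mitochondrial ribosomal RNA against 1.82% to 4.49% elsewhere. Of the labelled cell type, 9 of 10 CD8 T cell markers were in the tables and none of the 9 was at 0 in any group. Their summed level was 10738 to 11647 CPM in unstimulated libraries and 4871 to 7562 CPM in stimulated ones, without overlap, and its part in the chaperone changes was not tested. Over all genes, the median log2 change against unstimulated cells was 0.02, 0.04, 0.01 and 0.04, and scaling by library size alone made it 0.26, 0.30, 0.22 and 0.37. Directions below are therefore relative to the scaled totals.

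The inducible HSP70 pair had the widest differences of the 10 genes: both were readily counted before stimulation and close to 0 in every stimulated library. Hspa1a had 144, 260 and 350 counts in unstimulated replicates 1, 2 and 3, or 21.1, 47.0 and 81.5 CPM. Over all 12 stimulated libraries it had 9 counts in total, with 7 libraries at 0 and at most 3 counts in any. Hspa1b had 896, 1316 and 1570 counts before stimulation, or 132, 238 and 365 CPM. Its 12 stimulated libraries held 31 counts in total, with 3 at 0 and at most 10 in any. No stimulated library overlapped the unstimulated ones for either gene. Hspa1b took 81.8% to 86.2% of the pair's counts in the 3 unstimulated libraries, so the ratio of both genes was similar while their level differed by 3.85 times (Hspa1a) and 2.78 times (Hspa1b) between those libraries.

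**Figure D1:**
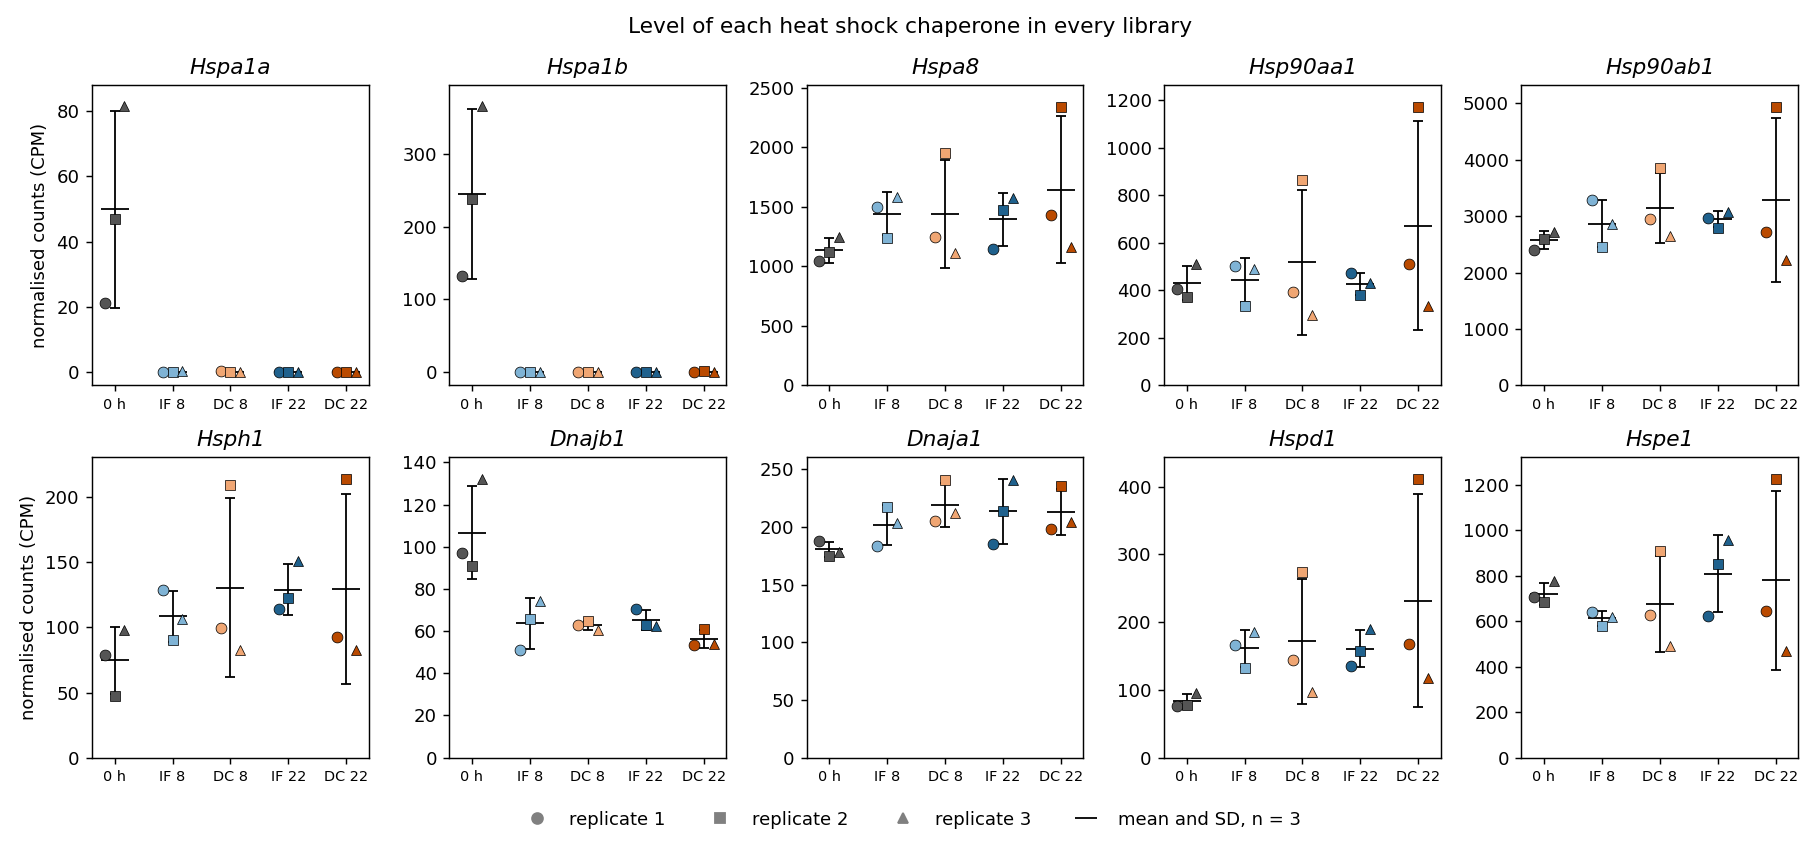
Level of each chaperone in every library, in CPM on a linear axis, with replicates 1, 2 and 3 as circles, squares and triangles and the mean and SD (n = 3) in black. Hspa1a and Hspa1b lie near 0 in all 12 stimulated libraries, and Dnajb1 lies lower and Hspd1 higher than in the 3 unstimulated ones. For the 8 other genes the square of each DC group lies highest within that group.

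Summed over libraries, Hspa1a was 560 times lower at IF 8 h than before stimulation (95% exact interval 100.2 to 22137). With dendritic cells it was 283 times lower after 8 h (110.0 to 1040.3) and 1338 times lower after 22 h (239 to 52914), and with IF for 22 h it was 549 times lower (187 to 2669). For Hspa1b the corresponding values were 1404 times (388 to 11596) at IF 8 h and 709 times (359 to 1644) at DC 8 h. At 22 h they were 4132 times (1143 to 34128) with IF and 353 times (226 to 587) with DC. The intervals cover counting error only; amplified reads need not be separate molecules, and they leave out the spread between libraries. Single libraries moved some of these values for Hspa1a by over 1.5 times: 307 times without IF 8 h replicate 1, 674 without DC 8 h replicate 1 and 807 without DC 22 h replicate 3. Hspa1a was left at 0 without replicate 3 of IF 8 h or IF 22 h or replicate 2 of DC 22 h, which gives at least 130.3-fold, 253-fold and 305-fold lower levels (3 counts over the group). Hspa1b was left at 0 without IF 22 h replicate 3, at least 1270.1-fold lower, and otherwise moved by less than 1.5 times with 1 library left out. For the sum of both genes, which does not depend on how shared reads were split, the values were 1122, 567, 1982 and 402 times in the same order of groups. In bulk RNA, fewer cells with a transcript and less of it per cell cannot be told apart.

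Early response genes, which cells switch on within minutes of stress or stimulation, were also high before stimulation. The list holds 31 genes, of which 29 were tested. It was chosen with earlier results of these data known, so its counts are a description and support nothing. Summed over the list, the level was 6950, 6851 and 8796 CPM in unstimulated replicates 1, 2 and 3 and between 3104 and 4796 CPM in the 12 stimulated libraries. Unstimulated replicate 3, the highest, was also the highest for Hspa1a and Hspa1b. At an adjusted p-value under 0.05 (edgeR quasi-likelihood test, Benjamini-Hochberg), 14 list genes were lower and 1 higher at IF 8 h, where 7.76% of all 10831 genes were called. At DC 8 h 12 were lower and 1 higher against 6.82% of all genes, at IF 22 h 15 and 2 against 6.08%, and at DC 22 h 18 and 1 against 7.76%. The list's median log2 changes were −0.88, −0.80, −1.07 and −1.65, beside 0.02, 0.04, 0.01 and 0.04 over all genes. Without IF 22 h replicates 2 and 3, 6 list genes were called at IF 22 h in place of 17, beside 0.833% of all genes in that fit in place of 6.08%. There the lone library is assumed to vary like the other groups.

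Fos, a subunit of the AP-1 transcription factor, was at 292 ± 95.4 CPM (SD, n = 3) before stimulation and at 5.23 ± 3.22, 4.60 ± 2.71, 3.04 ± 0.381 and 1.29 ± 0.744 CPM in the stimulated groups. Its log2 changes were −5.74 ± 0.48 (SE), −5.97 ± 0.47, −6.58 ± 0.49 and −7.78 ± 0.53. Fosb, a related AP-1 subunit, fell from 88.2 ± 45.7 CPM to 3.30 ± 2.94, 1.59 ± 1.64, 3.16 ± 0.283 and 0.479 ± 0.830 CPM, although at IF 22 h it was not called without replicates 2 and 3 (adjusted p = 0.140 by edgeR). Jun, a partner of Fos, fell at IF 22 h from 662 ± 194 to 5.84 ± 1.85 CPM. It was lower there than at IF 8 h (log2 difference −3.02 ± 0.46 SE) and than at DC 22 h (−3.63 ± 0.47). Dusp1, a phosphatase of stress kinases, fell at DC 22 h from 147 ± 51.1 to 5.08 ± 1.92 CPM. Klf4, a transcription factor that restrains division, fell at IF 8 h from 17.2 ± 1.55 to 0.111 ± 0.191 CPM. Its log2 change there was −7.44 ± 0.93 (SE), and −4.46 ± 0.66 at DC 8 h. Jun, Dusp1 and Klf4 are each printed for a group where their fall was among the largest on the list. Fos, Fosb, Jun, Dusp1 and Klf4 were thus high in the same 3 libraries as the HSP70 pair. The list genes called higher, 1, 1, 2 and 1 in the 4 groups, are not named here. The unstimulated group was sampled at 0 h alone, so time and stimulation cannot be told apart. Markers of other cells also varied, and all 18 dendritic cell markers on the list were in the tables. Their summed level was 840, 733 and 1605 CPM in unstimulated replicates 1, 2 and 3, 404 to 737 CPM in IF libraries and 708 to 1353 CPM in DC libraries. Zbtb46 and Ccl17 were at 0 before stimulation and Zbtb46 and Batf3 at IF 8 h, while the rest had counts in every group. The 5 neutrophil markers summed to 0.881 to 12.6 CPM in the unstimulated libraries, highest in replicate 3, as were the HSP70 pair. In replicate 1, where they were at 0.881 CPM, Hspa1b was already at 132 CPM. The neutrophil markers summed to 0 to 2.64 CPM at 8 h and were all at 0 at 22 h. The 6 monocyte and macrophage markers in the tables summed to 6.28 to 10.8 CPM before stimulation, lowest in replicate 3 and with Lyz2 and Cd14 at 0. After stimulation they summed to 1.74 to 7.30 CPM. The 7 B cell markers in the tables summed to 20.7 to 24.2 CPM before stimulation, also lowest in replicate 3. After stimulation these summed to 4.72 to 38.7 CPM. The part of such cells in the HSP70 levels was not tested.

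Dnajb1, the J-domain protein that works with inducible HSP70, was the third gene lower in all 4 stimulated groups, by a much smaller factor. It was at 97.0, 90.9 and 132 CPM before stimulation. It was at 50.8, 65.6 and 74.5 CPM at IF 8 h and at 63.0, 64.8 and 60.3 CPM at DC 8 h. At 22 h it was at 70.6, 62.9 and 62.4 CPM with IF and at 53.4, 60.9 and 54.0 CPM with DC. All 12 stimulated values lay under the 3 unstimulated ones. The log2 changes were −0.75 ± 0.18, −0.76 ± 0.18, −0.71 ± 0.18 and −0.92 ± 0.18 (SE), and they were negative under every scaling and with each library left out.

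Dnaja1, another cytosolic J-domain protein, moved little and the other way. It was at 188, 175 and 179 CPM before stimulation, and its group means were 202 ± 17.1, 219 ± 19.0, 214 ± 27.9 and 213 ± 20.1 CPM (SD, n = 3) after stimulation. Only the DC groups lay wholly above the unstimulated range, and the log2 changes ran from 0.16 to 0.28, with that at IF 22 h at 0.04 without IF 22 h replicates 2 and 3. Dnaja1 shares exonic bases with Smu1 and Gm6297 on the opposite strand.

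Among the mitochondrial chaperonins, Hspd1 (HSP60) was higher in all 4 stimulated groups. It was at 76.2, 77.5 and 95.9 CPM before stimulation, at 166, 132 and 186 CPM at IF 8 h and at 136, 157 and 190.2 CPM at IF 22 h. With dendritic cells it was at 144, 275 and 96.3 CPM at 8 h and at 167, 411 and 117 CPM at 22 h. The groups did not overlap, although DC 8 h replicate 3 lay barely above the highest unstimulated library. Log2 changes were 0.96 ± 0.39, 1.05 ± 0.39, 0.95 ± 0.39 and 1.48 ± 0.39 (SE). Without replicate 2 of both DC groups they were 0.53 at DC 8 h and 0.80 at DC 22 h.

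Hspe1 (HSP10), the partner of Hspd1 and its neighbour on chromosome 1, did not follow it against unstimulated cells. It was at 705, 684 and 777 CPM before stimulation. It was at 643, 578 and 619 CPM at IF 8 h, wholly under that range, and overlapped it in the 3 other groups. The log2 changes were −0.24 ± 0.28, −0.10 ± 0.28, 0.17 ± 0.28 and 0.11 ± 0.28 (SE), and without both DC libraries numbered 2 that at DC 22 h was −0.35. At IF 22 h it was −0.21 without replicates 2 and 3. Scaled by library size alone, its changes at 8 h turned to 0.0058 with IF and 0.17 with DC. With the scaling used here, that at DC 8 h was 0.099 without DC 8 h replicate 3. Both genes share 112 exonic bases on opposite strands, and 46% of the 60-base windows in the last 500 bases of Hspe1 also occur in other annotated genes, so its counts are uncertain.

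The constitutive HSP70, HSP110 and HSP90 genes changed by less than 2-fold in their group means. Hspa8, the constitutive HSP70, was at 1136 ± 104 CPM before stimulation and at 1443 ± 179, 1438 ± 452, 1395 ± 225 and 1643 ± 616 CPM (SD, n = 3) after stimulation. All 4 groups overlapped the unstimulated libraries, and at IF 22 h its log2 change of 0.30 became 0.01 without replicates 2 and 3. Of the windows in its last 500 bases 81.4% occur in other annotated genes, so its counts are uncertain too. Hsph1 (HSP110) was at 79.0, 47.4 and 97.8 CPM before stimulation and wholly above that range at IF 22 h alone, with 114, 122 and 151 CPM. Its log2 changes were 0.54 ± 0.38, 0.81 ± 0.38, 0.79 ± 0.37 and 0.80 ± 0.38 (SE), and those with DC became 0.28 at 8 h and 0.26 at 22 h without replicate 2 of both DC groups. Hsp90ab1, the constitutive HSP90, was at 2401, 2585 and 2725 CPM before stimulation and also wholly above only at IF 22 h, with 2973, 2793 and 3076 CPM. Its log2 changes were 0.16, 0.29, 0.20 and 0.35, each ± 0.22 (SE), and those with DC became 0.11 at 8 h and −0.04 at 22 h without those libraries. Hsp90aa1, the inducible HSP90, overlapped in all 4 groups, and at IF 22 h its log2 change of −0.0055 was 0.20 with library size alone. It was at 406, 374 and 511 CPM before stimulation, 502, 335 and 490.3 CPM at IF 8 h and 473, 381 and 432 CPM at IF 22 h. Its log2 changes of 0.27 ± 0.39 at DC 8 h and 0.64 ± 0.39 at DC 22 h became −0.32 and −0.0034 without replicate 2 of both DC groups.

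**Figure D2:**
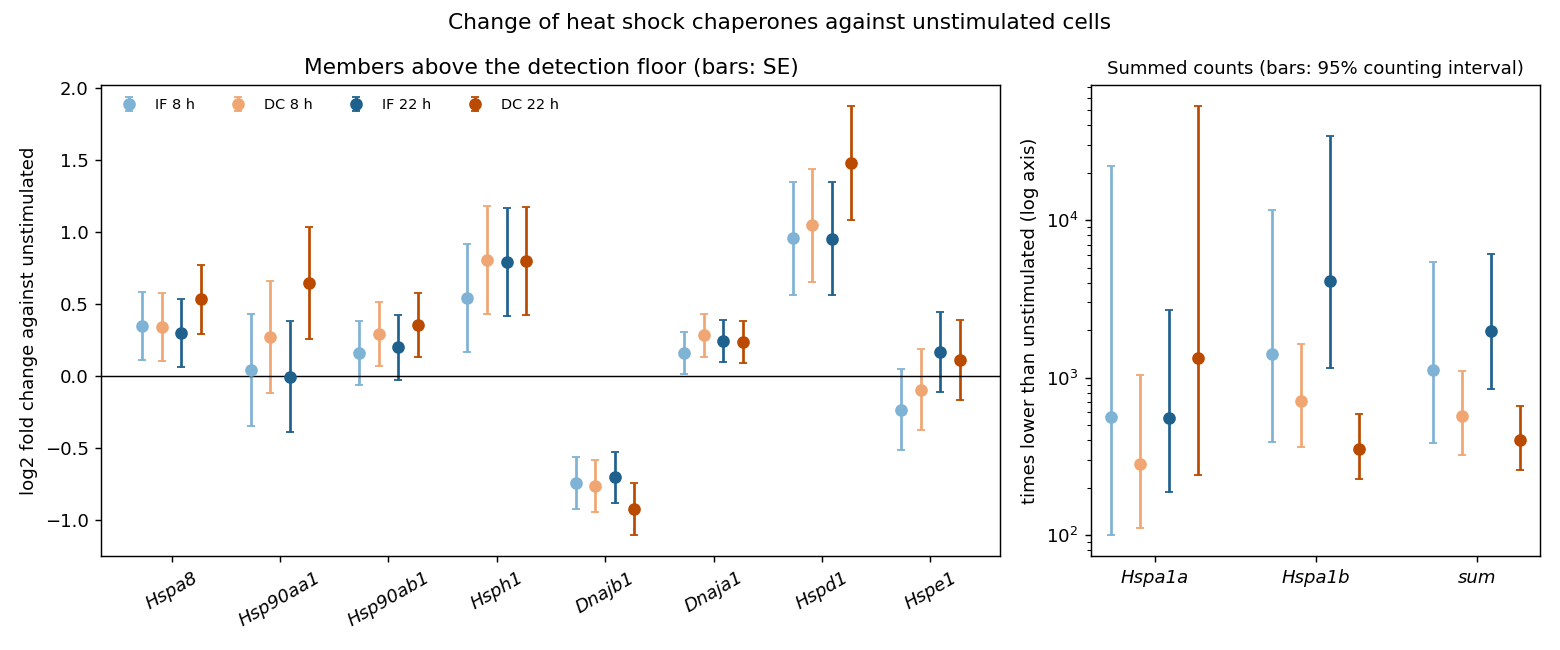
Change of the chaperones against unstimulated cells: on the left the log2 fold change with its SE for 8 genes in 4 stimulated groups, on the right how many times lower Hspa1a, Hspa1b and their sum were, with 95% counting intervals on a log axis. Dnajb1 lies under 0 and Hspd1 above 0 in all 4 groups, and the sum of the pair on the right lies 402 to 1982 times lower.

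Counted over all 10 genes and 4 groups, 21 of 40 comparisons with unstimulated cells had no overlap. At IF 8 h 1 gene was wholly higher and 4 wholly lower, where 14.2% and 16.4% of all genes were. At DC 8 h it was 2 and 3 genes against 13.0% and 15.2% of all genes. At IF 22 h it was 3 and 3 genes against 15.7% and 14.7%, and at DC 22 h 2 and 3 genes against 12.8% and 14.2%. The 12 lower comparisons of Hspa1a, Hspa1b and Dnajb1 make up all of the lower ones except that of Hspe1 at IF 8 h. The choice of genes used this contrast, so nothing is read from these shares.

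The stimuli were then compared with each other. None of the 10 genes passed the threshold at 8 h or at 22 h by edgeR, where 0.665% and 2.43% of all genes did. Hspa1a and Hspa1b are among the 10 but passed the filter through the unstimulated libraries alone, so nothing is read from their tests. At an unadjusted p-value under 0.05 there were 0 genes at 8 h and 1 at 22 h, beside 896 and 1656 of all 10831 genes. DESeq2 called 0 and 1, beside 195 and 563 of all genes. For the 8 genes other than the HSP70 pair, the log2 difference of IF minus DC ran from −0.27 to 0.02 at 8 h, and the widest 95% interval reached an absolute value of 1.05. The smallest adjusted p-value at 8 h was 0.941, for Dnaja1, with a difference of −0.12 ± 0.15 (SE). At 22 h the differences ran from −0.65 to 0.22 and the widest interval reached 1.47. Hsp90aa1 was at −0.65 ± 0.39 (adjusted p = 0.467 by edgeR), and at 0.015 without DC 22 h replicate 2. Its adjusted p-value was 0.0486 without the low-count filter. At this spread, differences between the stimuli of about 2-fold are not shown to be absent for the genes with wide intervals.

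Hspa1b was the gene with an unadjusted p-value under 0.05 at 22 h. It had 7, 10 and 2 counts in DC 22 h replicates 1, 2 and 3 (0.797, 1.11 and 0.171 CPM) and 0, 0 and 2 counts with IF 22 h (0, 0 and 0.102 CPM). The IF libraries at 0 allow up to 0.357 and 0.359 CPM (3 counts), which is above DC 22 h replicate 3, so the groups are not shown to be separate. By summed counts the DC level was 11.7 times that with IF (95% counting interval 2.82 to 104). Both IF counts came from replicate 3, and the edgeR log2 difference ran from −5.27 to −2.73 with 1 library left out. The edgeR log2 difference was −3.27 ± 1.01 (SE) with an adjusted p-value of 0.111, and 0.238 with the pair summed. The adjusted p-value ran from 0.000695 without the low-count filter to 0.896 without IF 22 h replicates 2 and 3, and was 0.0327 by DESeq2 and 0.0480 without DC 22 h replicate 3. The gene passed the filter through the unstimulated libraries alone and each of these 6 libraries held 0 to 10 counts, so nothing is read from these p-values. Dnajb1 had no overlap at 22 h, higher with IF in all 3 libraries, where 10.7% of all genes were wholly higher and 9.11% wholly lower.

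**Figure D3:**
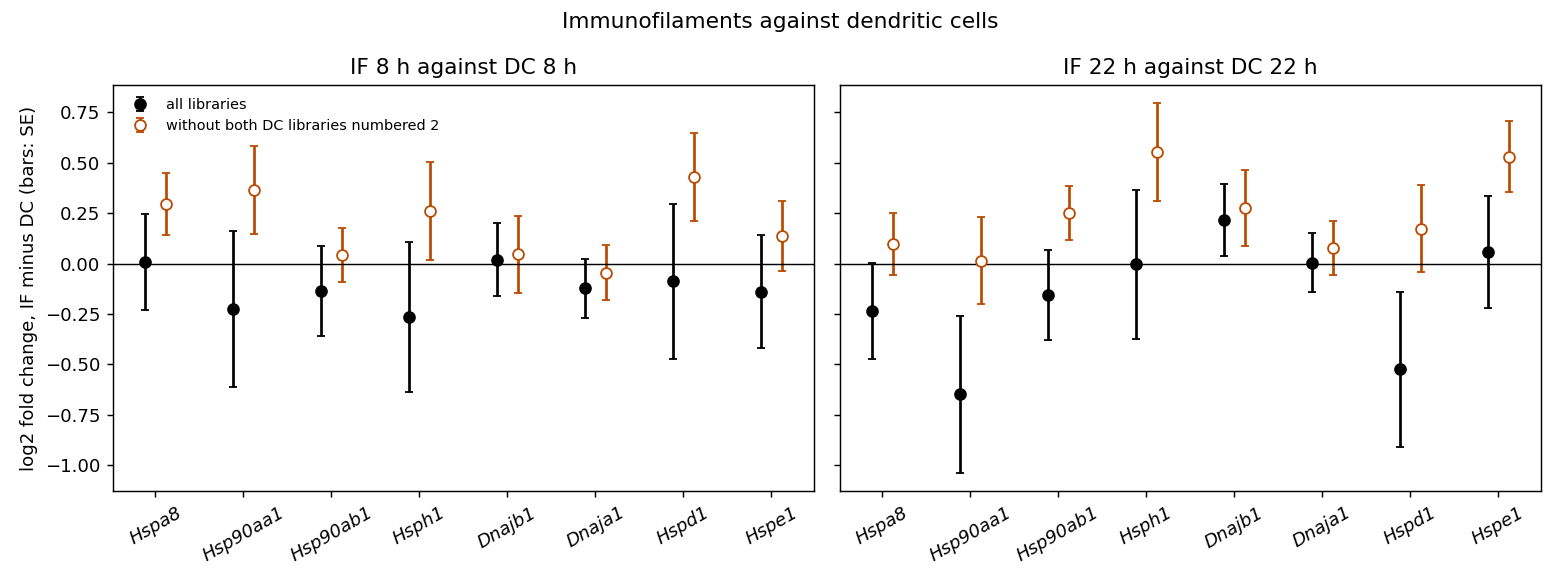
Difference between immunofilaments and dendritic cells (log2, IF minus DC, bars SE) for 8 chaperones at 8 h and 22 h, with all libraries (filled) and without replicate 2 of both DC groups (open). With all libraries the values run from −0.65 to 0.22, and without those 2 libraries all 8 lie at or above 0.01 at 22 h.

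Time within a stimulus was compared as well. From 8 h to 22 h 0 of the 10 genes passed the threshold with IF, where 1.12% of all genes did, and 0 with DC, where 0.480% did. Here and in the interaction too, nothing is read from the tests of Hspa1a and Hspa1b, which passed the filter through the unstimulated libraries alone. The counts at an unadjusted p-value under 0.05 were 0 in both, beside 1622 and 978 of all genes, and DESeq2 called 0 in both, beside 366 and 210 of all genes. With IF the smallest adjusted p-value was 0.545, for Hspe1 with a log2 difference of 0.40 ± 0.28 (SE), which was 0.03 without IF 22 h replicates 2 and 3, and the 8 genes ran from −0.05 to 0.40. With DC they ran from −0.16 to 0.43, the latter for Hspd1 at 0.43 ± 0.39, which became −0.25 without DC 22 h replicate 2 alone and 0.27 without both DC libraries numbered 2. Between same-numbered DC libraries Hspd1 was higher at 22 h in 3 of 3 pairs, as were Hspa8 and Hsp90aa1, beside 18.1% of all genes. Dnajb1 and Dnaja1 were lower in 3 of 3, beside 19.4% of all genes. In a fit of the DC groups alone with these pairs as a replicate block, Hspd1 was at 0.35 (adjusted p = 0.203 by edgeR). In the interaction, which asks whether the difference between stimuli changed with time, 0 of 10 genes and 0% of all genes were called by edgeR, with 0 of the 10 at an unadjusted p-value under 0.05, 858 of all genes there, and 0 of the 10 and 40 of all genes by DESeq2.

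Much of the spread within the DC groups came from 1 library at each time. DC replicate 2 was the highest of its group for all 8 genes at 8 h and again at 22 h, as were 23.2% of all genes at both times. It exceeded 1.5 times the group median at both times for 4 of the 8 and for 5.12% of all genes. Hsp90aa1 was at 393, 864 and 296 CPM at DC 8 h and at 509.9, 1171 and 336 CPM at DC 22 h. Replicate 2 was thus 2.50 and 2.77 times the mean of replicates 1 and 3. For Hspd1 the corresponding ratios were 2.29 and 2.89, for Hsph1 2.30 and 2.44, and for Dnajb1 1.05 and 1.13. The HSP70 pair together had 4, 4 and 4 counts in DC 8 h replicates 1, 2 and 3 and 7, 11 and 2 at DC 22 h. The dendritic cell markers summed to 1139 CPM in DC 8 h replicate 2, against 1353 and 1144 CPM in replicates 1 and 3. At 22 h they summed to 997 CPM in replicate 2, against 721 and 708 CPM. Their part in the chaperone levels was not tested.

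**Figure D4:**
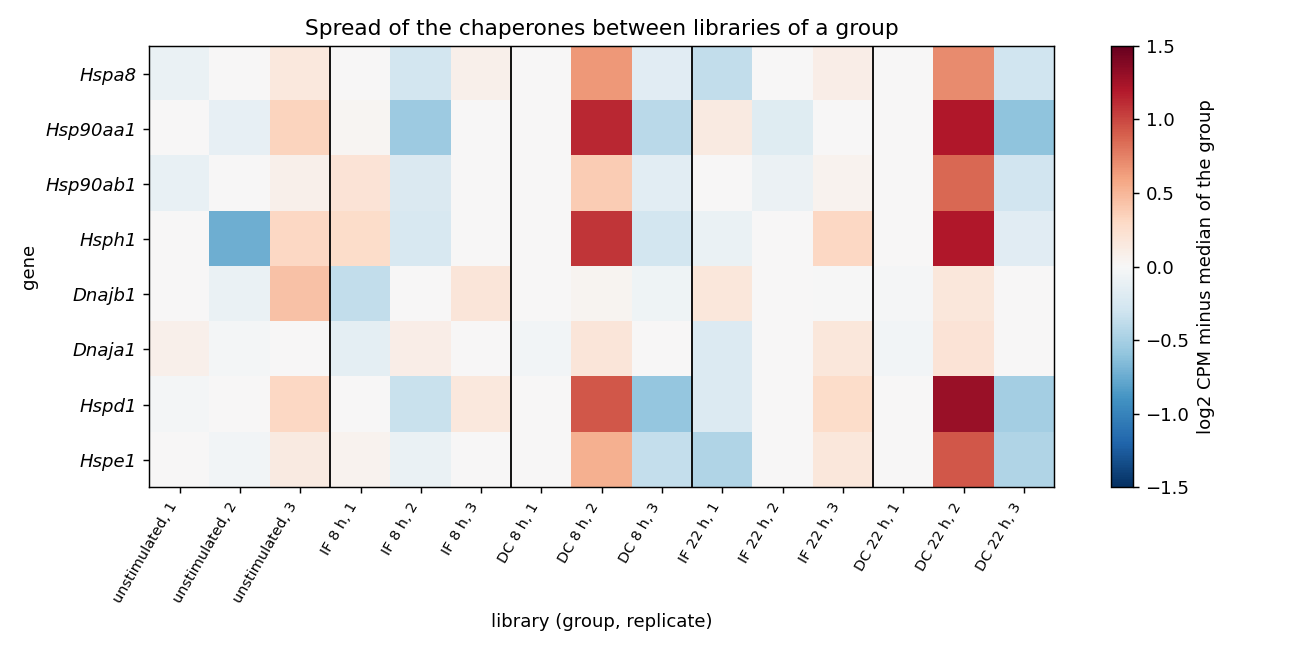
Log2 level of 8 chaperones in each of the 15 libraries minus the median of its group, with red above and blue below. Replicate 2 of DC 8 h and DC 22 h is red for Hspa8, both HSP90 genes, Hsph1, Hspd1 and Hspe1 and pale for Dnajb1 and Dnaja1.

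Without replicate 2 of both DC groups, the log2 difference of IF minus DC ran from −0.05 to 0.43 at 8 h and from 0.01 to 0.55 at 22 h over the 8 genes. None of the 8 passed the threshold, beside 98 and 346 of all 11122 genes tested there, and the smallest adjusted p-values by edgeR were 0.515 and 0.127. Over the 12 stimulated libraries, all 28 pairs of these genes had Pearson's r of log2 CPM between 0.045 and 0.975. The 15 pairs among Hspa8, Hsp90aa1, Hsp90ab1, Hsph1, Hspd1 and Hspe1, a set picked after seeing these values, had Pearson's r between 0.776 and 0.975 and Spearman's rho between 0.699 and 0.951. Without both DC libraries numbered 2 Pearson's r lay between 0.427 and 0.920. Dnaja1 had r between 0.388 and 0.653 with these 6 (rho −0.049 to 0.462), and between −0.45 and 0.434 without those libraries. Dnajb1 had r between 0.045 and 0.211 with the 7 others. These are descriptions, since the libraries share groups and the genes share each library's scaling.

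The wider chaperone network was read from 8 lists with 85 genes, of which 80 were in the tables and 71 were tested. Past the threshold, 2 of the 71 were higher and 2 lower at IF 8 h, with 0 and 2 at DC 8 h, 1 and 1 at IF 22 h, and 1 and 1 at DC 22 h. These are shares of 5.63%, 2.82%, 2.82% and 2.82%, beside 7.76%, 6.82%, 6.08% and 7.76% of all genes, and the difference was not tested. Scaled by library size alone, the counts were 10, 8, 5 and 14 (14.1%, 11.3%, 7.04% and 19.7%), beside 10.3%, 9.96%, 7.74% and 14.6% of all genes. These lists too were chosen with earlier results known, so counts against unstimulated cells are a description. The median log2 change over the 71 was 0.05, 0.10, 0.06 and 0.07 in the same order. None of 17 HSP90 co-chaperones and none of 3 tested small heat shock proteins passed the threshold in these 4 comparisons by edgeR. At an unadjusted p-value under 0.05 there were 4, 5, 2 and 6 of the 17 and 2, 0, 0 and 1 of the 3, beside 2484, 2261, 2225 and 2405 of all 10831 genes.

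Dnajb9, a J-domain protein of the endoplasmic reticulum, was the list gene that passed the threshold in all 4 groups, each time lower. It went from 23.9 ± 4.83 CPM (SD, n = 3) to 5.44 ± 1.95 CPM at IF 8 h and 6.83 ± 2.63 CPM at DC 22 h, with log2 changes from −2.10 to −1.61 and adjusted p-values from 0.00136 to 0.00641 by edgeR. It passed the threshold with each library left out, though not at IF 22 h without both replicates 2 and 3 (adjusted p = 0.252). Hsf2, a heat shock factor, rose from 2.92 ± 0.522 to 9.62 ± 2.57 CPM at IF 8 h (log2 1.70 ± 0.38 SE, adjusted p = 0.0113). It rose to 7.27 ± 1.90 CPM at DC 22 h (1.31 ± 0.37, adjusted p = 0.0363). St13, a HSP70 cofactor, rose at IF 8 h from 22.4 ± 3.77 to 55.1 ± 9.76 CPM. Dnajb4, a cytosolic J-domain protein, fell there from 14.6 ± 8.16 to 3.64 ± 2.78 CPM, with a log2 change of −2.02 ± 0.55.

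Dnajc3, a cofactor of HSP70 in the endoplasmic reticulum, fell at DC 8 h by 0.80 on the log2 scale, and Dnaja3, a mitochondrial J-domain protein, rose at IF 22 h by 0.80. Dnaja3 was at 26.2 CPM before stimulation and at 39.5, 37.1 and 38.9 CPM at IF 8 h, DC 8 h and DC 22 h. Dnajc3 was at 92.2 CPM before stimulation and at 62.3, 61.2 and 80.4 CPM at IF 8 h, IF 22 h and DC 22 h. None of these further changes passed the threshold. Between stimuli 2 of the 71 list genes (2.82%) differed at 22 h, both higher with IF, beside 2.43% of all genes, and 0 at 8 h, beside 0.665%. Hspa4l, a HSP110 relative, was at 9.0 ± 1.95 CPM with IF and 2.65 ± 0.426 CPM with DC (adjusted p = 0.0318 by edgeR). Hsbp1, which binds heat shock factor 1, was at 71.2 ± 7.27 and 46.3 ± 3.16 CPM (adjusted p = 0.0449). Each call other than those of Dnajb9 was lost in 2 or more of 6 fits with 1 library left out, in the same direction throughout. At IF 8 h Hsf2 was lost without unstimulated replicate 2 (adjusted p = 0.0525) or IF 8 h replicate 3 (0.0505), with log2 changes of 1.56 and 1.52. Dnajb4 there was lost without unstimulated replicate 3 or IF 8 h replicates 1 or 2 (0.0929 to 0.157), and St13 without unstimulated replicates 1 or 2 or IF 8 h replicate 3 (0.0627 to 0.0803), with log2 changes of 1.15 to 1.28. Dnajc3 was lost without unstimulated replicate 1 or DC 8 h replicates 2 or 3 (0.0565 to 0.137), and with library size alone (0.104, log2 −0.53). The calls of Hsf2 at DC 22 h, Dnaja3, Hspa4l and Hsbp1 held in 1 fit of 6, that without DC 22 h replicate 1 for Hsf2 and without IF 22 h replicate 1 for the rest. Hsbp1 was also lost in 7 of 9 other settings, Hsf2 at DC 22 h in 4 of 8, Hspa4l in 3 of 9 and Dnaja3 in 1 of 8, without IF 22 h replicates 2 and 3 (0.479).

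The genes most like each chaperone across the 15 libraries were found by Pearson's r of log2 CPM among 7598 genes. This is a description over libraries that fall into groups. The chaperones themselves were left out as neighbours, and Hspa1a and Hspa1b had r = 0.974 with each other. Hspa1a was closest to Car1 (r = 0.969), a carbonic anhydrase, then to Fos (0.947) and Flt3l (0.940), a cytokine. For Hspa1b these were Car1 (0.961), Flt3l (0.955) and Vim (0.945), an intermediate filament protein. Dnajb1 was closest to Car1 (0.886), Dusp1 (0.874) and Fos (0.863). The other chaperones had different neighbours. Hspa8 was closest to Ranbp1 (0.961), a cofactor of nuclear transport, Cycs (0.959), cytochrome c, and Tmem97 (0.953). For Hsp90ab1 these were Nhp2l1 (0.980), a splicing factor, Tomm40 (0.959), the pore for mitochondrial protein import, and Ran (0.949), the GTPase of nuclear transport. Hsp90aa1 was closest to Pold2 (0.936), a DNA polymerase subunit, Ncbp2 (0.918), a cap-binding protein, and Nhp2l1 (0.914). Hspd1 was closest to Ppid (0.972), a HSP90 co-chaperone, Magoh (0.966), of the exon junction complex, and Npm1 (0.963), a nucleolar protein. Hspe1 was closest to Alyref (0.936), an RNA export factor, Vdac1 (0.926), a channel of the outer mitochondrial membrane, and Nme2 (0.920), a nucleoside diphosphate kinase. For Hsph1 the genes were Brix1 (0.936), Ruvbl1 (0.929) and Sfpq (0.924). For Dnaja1 they were Mrpl50 (0.886), a mitochondrial ribosomal protein, Ssbp1 (0.851), which binds mitochondrial DNA, and Dynll2 (0.841).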

How the data were processed

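The authors' deposited tables hold whole-number read counts per gene, without normalization, for 15 CEL-seq libraries; per the labels' protocols, reverse transcription was primed with barcoded primers and RNA amplified by in vitro transcription. BWA and mm10 are named in the submitters' processing notes; versions, annotation, strand, counting program and use of molecular identifiers are not given in the sources used here. CEL-seq reads lie near transcript ends, so levels are not compared between genes.

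The analysis used edgeR 4.0.16 under R 4.3.3, with filterByExpr (minimum count 10, minimum total 15), TMM scaling, 1 quasi-likelihood fit of 5 group means over 15 libraries, two-sided tests, and Benjamini-Hochberg adjustment over 10831 genes at 0.05. Fold changes use a prior count of 0.125 and log2 CPM one of 2. DESeq2 1.42.0 was an alternative. Ratios of Hspa1a and Hspa1b use summed counts with exact conditional 95% intervals. The fit was also run on simulated data, whose outcome is not given here.

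The members and gene lists were chosen with earlier results of these data known. All 10 members were described. List genes named are among the up to 3 per list and comparison that passed the threshold with the largest change, not all of which are printed. For each member the 3 genes with the highest correlation are named among those outside the members with at least 10 CPM in a group. Dropping replicate 2 of both DC groups, or replicates 2 and 3 of IF 22 h, was chosen after seeing the data. Replicates are numbered Don1 to Don3 in the titles, a tag the labels do not explain. Deviations of same-numbered libraries from their group means correlated at over 0.1 in all 3 numbers for 1 of 10 pairs of groups, DC 8 h and DC 22 h (0.116 to 0.399), so the numbers were taken to pair only those groups.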

Additional observations from a re-analysis of the deposited data

How the results depend on the processing

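No chaperone was called by edgeR in any of the 5 tested comparisons under any scaling, nor with the replicate block (0 in each, also with only the DC groups and the replicate block). Shares of all genes follow for IF against DC at 8 h and 22 h, time with IF and DC, and the interaction. With the block they were 0.499%, 2.26%, 0.969%, 0.452% and 0%. Library size alone gave 0.794%, 2.47%, 1.03%, 0.582% and 0%, and DESeq2 size factors 0.692%, 2.44%, 1.12%, 0.480% and 0%. With only the DC groups and the block 1.63% of all genes were called. At IF 22 h against DC 22 h, 2 chaperones were called without the low-count filter (Hspa1b, and Hsp90aa1 at an adjusted p of 0.0486), 1 by DESeq2, and 0 to 1 with 1 library left out, beside 4.12%, 5.2% and 0.805% to 6.81% of all genes. For Hsp90aa1 there the log2 difference turned to 0.015 without DC 22 h replicate 2, in a range of −0.97 to 0.015 with 1 library left out, and to 0.014 with both DC libraries numbered 2 left out. For Hspd1 at DC 22 h against DC 8 h it turned to −0.25 without DC 22 h replicate 2, in a range of −0.25 to 0.95. Comparisons of chaperones with unstimulated cells without overlap numbered 21 of 40 (29.1% over all genes), 21 to 28 with 1 library left out (30% to 38.4%) and 20 to 31 otherwise (29% to 34.9%).

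Counts of called chaperone network genes moved more; the cause was not tested. The share of all genes called in the same fit follows in brackets. At IF 8 h the 4 (7.76%) became 10 (10.3%) with library size alone, 7 (6.82%) without the filter, 11 (13.7%) with only the groups compared, and 2 to 3 (3.75% to 5.13%) with 1 library left out. At DC 8 h the 2 (6.82%) became 8 (9.96%), 10 (6.59%) and 4 (8.34%) in these settings, 6 (10.8%) by DESeq2 and 1 to 3 (3.61% to 5.94%). At IF 22 h the 2 (6.08%) became 5 (7.74%), 5 (6.43%) and 7 (9.93%), 7 (9.84%) by DESeq2, 0 (0.833%) without IF 22 h replicates 2 and 3 and 1 to 6 (2.53% to 8.49%). At DC 22 h the 2 (7.76%) became 14 (14.6%), 10 (7.46%) and 1 (5.13%), 8 (11.7%) by DESeq2, 1 (7.25%) with the replicate block and 1 to 5 (4.06% to 8.81%). At IF 22 h against DC 22 h the 2 (2.43%) became 1 (2.44%) with DESeq2 size factors, 0 (0.687%) with only the groups compared, 1 (2.26%) with the replicate block, 1 (3.11%) without both DC libraries numbered 2, 0 (0.0673%) without IF 22 h replicates 2 and 3 and 0 to 4 (0.805% to 6.81%). With 1 library left out there were 0 to 2 (0.215% to 4.85%) at IF 22 h against IF 8 h and 0 to 1 (0 to 2.5%) in the interaction. Early response genes at IF 22 h went from 17 (6.08%) to 6 (0.833%) without IF 22 h replicates 2 and 3. The block moved no other count by over 1.5 times. Of the 15 libraries 8 correlated best with a library of their own number. Depth limits Hspa1a and Hspa1b after stimulation, where levels lie near the limit of 3 counts.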
